A study of Homo sapiens with 6 samples.

Results

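The NRF2 antioxidant response was followed here through 10 genes of the 17039 in the expression table: the transcription factor gene NFE2L2, its inhibitor KEAP1, and the 8 target genes HMOX1, NQO1, SLC7A11, GCLC, GCLM, TXNRD1, SRXN1 and ME1. The genes were taken by symbol, and all 10 were found and passed the filter on low values. They were compared between 231-BR cells, a variant of a human breast cancer line selected for metastasis to the brain, and the parental MDA-MB-231 cells, with 3 poly(A) RNA libraries of each. Libraries were assigned to a line by their titles, since the number within the cell line name in another label goes up from library to library in both lines and disagrees with the titles for all but the first library of each. Both lines grew in DMEM with 10% fetal bovine serum and 1% penicillin-streptomycin, and only the medium of 231-BR cells had G418 added, at 200 μg/mL, so that the cell line and this antibiotic cannot be told apart in any value below. The libraries of a line are described as independent samples and as parallel replicates, without a statement that they came from separate cultures, so that p-values measure the spread between these libraries, which may be technical.

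NFE2L2 encodes NRF2, a bZIP transcription factor. In unstressed cells KEAP1 holds NRF2 in the cytoplasm and presents it to a cullin ubiquitin ligase for degradation, and oxidants or electrophiles that modify cysteines of KEAP1 stop this. NRF2 then enters the nucleus, pairs with a small MAF protein and binds antioxidant response elements (AREs) in genes for glutathione synthesis, the thioredoxin system, quinone and heme metabolism and NADPH supply. Mutations of KEAP1 or NFE2L2 keep the pathway active in some tumours.

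The core of the ARE was written as TGACNNNGC and searched on both strands of RefSeq promoter windows of GRCh38.p14, each of 300 bases from 250 before to 50 after an annotated start site. Windows were found for 8 of the 10 genes, without HMOX1 and SLC7A11. At least 1 match lay in a window of 4 of them, KEAP1, GCLM, TXNRD1 and ME1, where 16.1% of all 27305 genes with a window have one. The 8 matches are shown because they are the stretches of these genes that carry the letters NRF2 and its partners are known to bind, each with 10 bases on either side, read 5′ to 3′ on the strand that holds the core, with the core in capitals.
GCLM: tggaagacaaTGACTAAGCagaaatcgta
KEAP1, a: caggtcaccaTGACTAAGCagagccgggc
KEAP1, b: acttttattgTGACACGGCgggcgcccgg
TXNRD1, a: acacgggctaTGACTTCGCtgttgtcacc
TXNRD1, b: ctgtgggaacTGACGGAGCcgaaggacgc
TXNRD1, c: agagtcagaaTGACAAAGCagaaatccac
ME1, a: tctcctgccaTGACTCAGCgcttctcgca
ME1, b: gctgctggggTGACGGTGCtgactgcagc

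Distances are from the start site to the first base of the core along the gene. The GCLM stretch is chr1:93909446-93909474 on the plus strand, opposite to the gene, with its core 34 bases before the start site. KEAP1 has stretch a at chr19:10502784-10502812 on the plus strand, opposite to the gene, with its core 31 bases before 1 of its start sites and the same 9 letters as in GCLM, and stretch b at chr19:10502807-10502835 on the minus strand, 54 bases before that site. For TXNRD1, stretch a is chr12:104215670-104215698 (plus strand, 99 bases before the first start site), b is chr12:104215761-104215789 (minus strand, 8 bases before it) and c is chr12:104286920-104286948 (minus strand, 102 bases before the second start site). ME1 has stretch a at chr6:83431170-83431198 (minus strand, 137 bases before the start site) and b at chr6:83431022-83431050 (plus strand, at base 12 of the transcript). In the GENCODE annotation TXNRD1 a and ME1 a lie outside the transcripts of their genes, and the other cores overlap an annotated exon in its untranslated part. Only the core of ME1 a overlaps the AP-1 motif TGANTCA, searched in the same way. No match lay in the windows of NFE2L2, NQO1, GCLC and SRXN1, which says only that these letters are not there. Of all 2032 tested genes with a match, 35.6% were lower and 42.0% higher in 231-BR cells, against 33.5% and 45.0% of 8510 genes without one.

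Expression was given by the authors as FPKM (fragments scaled by transcript length and by the mapped fragments of the library), so levels of different genes can be compared per length, while the depth of the libraries is unknown. The summed FPKM ran from 465020 to 496420 per library. The mesenchymal marker VIM had 2273 FPKM or more in every library and CDH1, the epithelial cadherin, at most 0.03, as is known for the parental line, while EPCAM, another epithelial marker, was present at 4.44 to 9.31 FPKM. Of 6 markers of leukocytes, endothelium and astrocytes the highest value was 0.48 FPKM, and their sum was 0.57 to 0.82 in 231-BR and 0.22 to 0.29 in MDA-MB-231 libraries, with AIF1 at 0 in every 231-BR library and PTPRC in every MDA-MB-231 library. Fold changes are log2 differences of FPKM + 0.1, 231-BR against MDA-MB-231, tested by limma with Benjamini-Hochberg adjustment over 13465 genes. Their median over all genes tested was 0.08, and it ran from -0.06 after quantile normalization to 0.15 after scaling to equal sums. At an adjusted p under 0.05, 77.3% of the genes tested were called, 44.4% higher and 32.9% lower in 231-BR cells, so that a call on its own says little. The criteria of the study (adjusted p under 0.05, absolute log2 fold change over 1 and, as applied here, a mean of at least 1 FPKM in each line) were met by 6.45% of the genes, 4.68% as higher and 1.77% as lower. Of the genes meeting them 72.6% were higher, against 63.4% after median-of-ratios scaling and 56.3% after quantile normalization. These shares come from limma on FPKM, whereas the study ran DESeq2, so they are not the study's own outcome.

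In 231-BR cells NFE2L2 and all 8 target genes fell, and KEAP1 was the 1 gene of the 10 that rose. For none of the 10 genes did a library of one line fall within the range of the other, which was also so for 78.4% of all genes tested (33.5% with the 231-BR libraries lower). The targets stood at 28.6% (GCLM) to 53.8% (GCLC) of their MDA-MB-231 mean, and the 10 log2 fold changes had a median of -1.22. The criteria of the study, met by 6.45% of all genes tested and by 1.77% as lower, were met by 6 of the 10, all lower: HMOX1, NQO1, SLC7A11, GCLM, TXNRD1 and SRXN1. In bulk RNA, fewer cells that express a gene and less RNA per cell cannot be told apart.

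**Figure D1:**
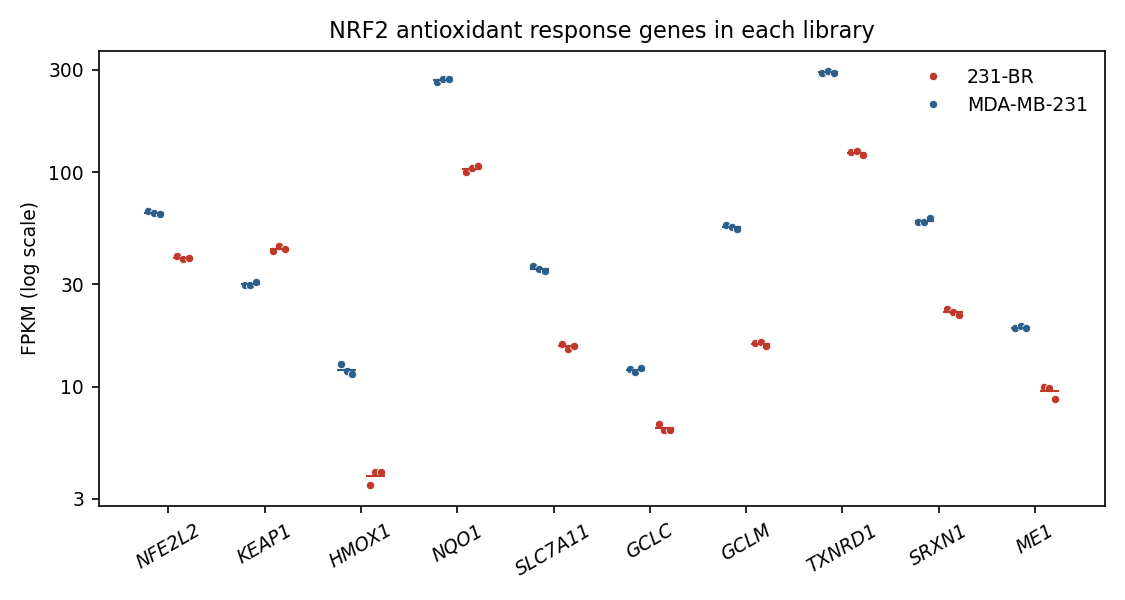
FPKM of the 10 genes in each library on a log axis, with points for libraries (3 per line) and short bars for means, 231-BR in red and MDA-MB-231 in blue. The red points lie below the blue ones for 9 genes and above them for KEAP1, where 231-BR libraries have 42.8 to 45.1 FPKM and MDA-MB-231 libraries 29.6 to 30.8.

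The regulators moved in opposite directions. NFE2L2 (Entrez gene 4780, chr2:177227595-177392697 of GRCh38, minus strand) had 40.4, 39.3 and 39.6 FPKM in 231-BR cells, against 65.6, 64.7 and 63.9 in MDA-MB-231 cells. Every 231-BR library was thus below every MDA-MB-231 library, and the log2 fold change was -0.70 ± 0.025 (standard error; limma, adjusted p = 3.9e-09). KEAP1 (9817, chr19:10486120-10503741, minus strand), the adaptor that targets NRF2 for degradation, had 42.8, 45.1 and 43.7 FPKM in 231-BR cells against 29.9, 29.6 and 30.8. It was higher in each 231-BR library, with a log2 fold change of 0.54 ± 0.031 (standard error; limma, adjusted p = 9.3e-08). Neither gene reached a log2 fold change of 1, and 77.1% of all genes tested had a lower fold change than KEAP1.

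Set against each other within a library, a measure that does not depend on how libraries are scaled, NFE2L2 was 2.15 ± 0.069 times KEAP1 in MDA-MB-231 cells, whereas in 231-BR cells the ratio was 0.908 ± 0.037 (± SD, 3 libraries of each line). In FPKM the order of the messages was therefore turned around, with NFE2L2 above KEAP1 in the 3 MDA-MB-231 libraries and below it in the 3 of 231-BR. Which of them is the higher also depends on the transcript length used for each gene, and the 231-BR ratio of 0.908 is near equality. The difference between the lines does not depend on it. On the log2 scale the ratio was -0.08, -0.20 and -0.14 in 231-BR libraries and 1.13, 1.13 and 1.05 in MDA-MB-231 libraries, a difference of -1.24. An exact two-sided permutation test gave p = 0.10, the smallest value that 3 libraries against 3 allow. Since NFE2L2 was lower and KEAP1 higher in every 231-BR library, this outcome was already fixed by the single genes.

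HMOX1 and NQO1 are the targets most used as readouts of the pathway. HMOX1 (3162, chr22:35380361-35394214, plus strand) encodes heme oxygenase-1, which breaks heme down to biliverdin, iron and carbon monoxide. It had 3.46, 4.0 and 3.98 FPKM in 231-BR cells and 12.7, 11.8 and 11.5 in MDA-MB-231 cells. The 3.14-fold lower mean in 231-BR cells came with a log2 fold change of -1.63 ± 0.067 (standard error; limma, adjusted p = 1.0e-08). HMOX1 was the lowest expressed of the 10 genes in 231-BR cells and the most variable between libraries of a line, with a coefficient of variation of 8.03% in 231-BR and 5.35% in MDA-MB-231 cells. The study had placed HMOX1 in its group of network hubs on these same libraries, so that its direction is not independent evidence. NQO1 (1728, chr16:69706996-69726951, minus strand), which reduces quinones without forming semiquinone radicals, had 99.9, 104 and 107 FPKM in 231-BR cells. The MDA-MB-231 libraries had 264, 271 and 273, which is 2.60 times the 231-BR mean, for a log2 fold change of -1.38 ± 0.028 (standard error; limma, adjusted p = 7.9e-11). By its mean NQO1 was above 94.5% of the genes tested in 231-BR cells and above 98.1% of them in MDA-MB-231 cells.

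The supply of glutathione begins with cystine uptake by SLC7A11, the light chain of the xCT exchanger, followed by glutamate-cysteine ligase, which is made of the catalytic subunit GCLC and the modifier GCLM. SLC7A11 (23657, chr4:138164097-138242349, minus strand) had 15.8, 15.0 and 15.4 FPKM in 231-BR and 36.3, 35.2 and 34.8 in MDA-MB-231 libraries. It fell by 1.20 on the log2 scale ± 0.033 (standard error; limma, adjusted p = 6.8e-10), and the groups were well apart. GCLM (2730, chr1:93885205-93909456, minus strand) had 16.0, 16.1 and 15.4 FPKM against 56.9, 55.3 and 54.1. This was the largest decrease of the 10, a log2 fold change of -1.80 ± 0.032 (standard error; limma, adjusted p = 3.6e-11), and 1.52% of all genes tested had a lower one. GCLC (2729, chr6:53497341-53616970, minus strand) had 6.70, 6.28 and 6.29 FPKM against 12.03, 11.7 and 12.2, the smallest decrease among the targets, with a log2 fold change of -0.89 ± 0.045 (standard error; limma, adjusted p = 4.3e-08).

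The ratio of partner subunits was lower in every 231-BR library for the ligase and for the transporter. GCLM was 4.64 ± 0.168 times GCLC in MDA-MB-231 cells and 2.47 ± 0.083 times GCLC in 231-BR cells (± SD, 3 libraries of each line), a difference of -0.92 on the log2 scale. SLC3A2, the heavy chain that carries SLC7A11 and several other light chains to the membrane, had 88.9 ± 1.84 FPKM in 231-BR and 117 ± 3.35 in MDA-MB-231 cells (± SD, 3 libraries of each line), giving a log2 fold change of -0.39. The ratio of SLC7A11 to SLC3A2 was 0.173 ± 0.0076 in 231-BR cells against 0.304 ± 0.016 in MDA-MB-231 cells (± SD, 3 libraries of each line), a log2 difference of -0.80. In either case the 3 libraries of 231-BR lay below the 3 of MDA-MB-231, and the exact two-sided permutation test gave p = 0.10, its smallest possible value. With 3 such ratios compared, all at the same permutation p, Benjamini-Hochberg adjustment leaves 0.10. A stricter correction for the number of ratios would raise it.

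**Figure D2:**
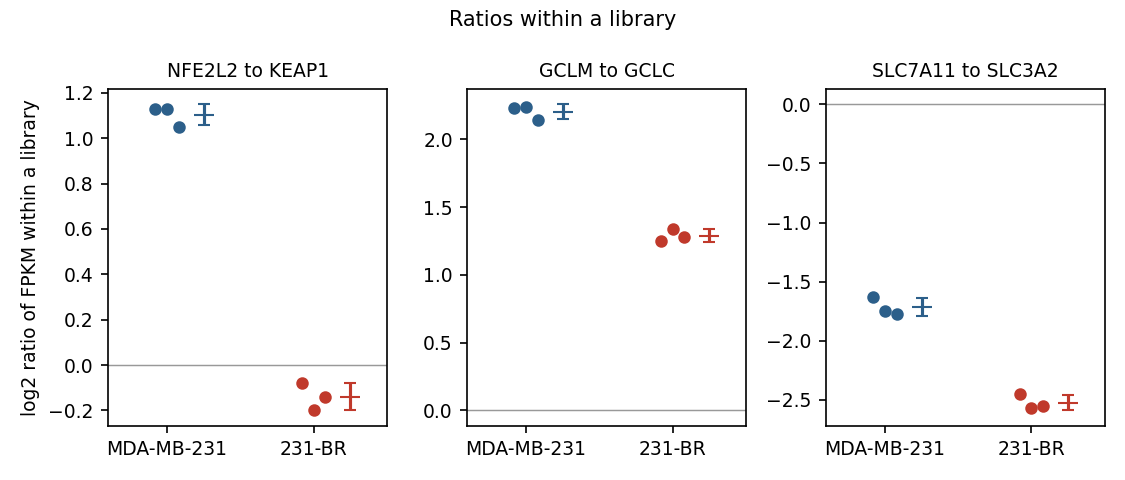
Log2 ratios of FPKM within each library for NFE2L2 to KEAP1, GCLM to GCLC and SLC7A11 to SLC3A2; points are libraries, dashes with bars the mean ± SD (n = 3), and the grey line is a ratio of 1. The NFE2L2 to KEAP1 ratio lies on either side of the line, at 1.10 in MDA-MB-231 and -0.14 in 231-BR cells on average.

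TXNRD1 and SRXN1 act on protein thiols. TXNRD1 (7296, chr12:104215779-104350305, plus strand), the cytosolic thioredoxin reductase, was the most expressed of the 10 genes in each line, with 125, 125 and 119.7 FPKM in 231-BR and 291, 294 and 288 in MDA-MB-231 libraries. Its log2 fold change was -1.24 ± 0.024 (standard error; limma, adjusted p = 5.8e-11). SRXN1 (140809, chr20:646615-653370, minus strand), the sulfiredoxin that repairs overoxidised peroxiredoxins, had 22.9, 22.2 and 21.5 FPKM against 58.8, 58.6 and 61.0. The mean in MDA-MB-231 cells was 2.68 times that in 231-BR cells, for a log2 fold change of -1.42 ± 0.032 (standard error; limma, adjusted p = 1.6e-10). ME1 (4199, chr6:83210389-83431071, minus strand), the cytosolic malic enzyme that yields NADPH, had 9.91, 9.83 and 8.75 FPKM in 231-BR cells and 18.7, 19.1 and 18.7 in MDA-MB-231 cells. It fell by 0.98 on the log2 scale ± 0.050 (standard error; limma, adjusted p = 4.4e-08), just short of the fold criterion, and passed it without 231-BR replicate 1 (-1.02) or without 231-BR replicate 2 (-1.01).

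Added up, the 8 targets made 298 to 303 FPKM per library of 231-BR, whereas those of MDA-MB-231 had 750.3 to 757, or 0.0631% to 0.0644% against 0.152% to 0.154% of the summed FPKM. TXNRD1 led the order of levels and NQO1 came next in both lines. Their means were 123 and 104 FPKM in 231-BR and 291 and 269 in MDA-MB-231 cells, so these genes made most of each sum. KEAP1 moved from the seventh place in MDA-MB-231 to the third in 231-BR cells. In 231-BR cells GCLM and SLC7A11, with 15.8 and 15.4 FPKM, overlapped between libraries, as did HMOX1 and GCLC in MDA-MB-231 cells, and all other neighbours in the order were separated. The 8 targets fell by unequal amounts, with log2 fold changes from -1.80 for GCLM and -1.63 for HMOX1 to -0.98 for ME1 and -0.89 for GCLC. Between 1.52% and 5.45% of all genes tested had a lower fold change than the targets, and 8.39% a lower one than NFE2L2.

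**Figure D3:**
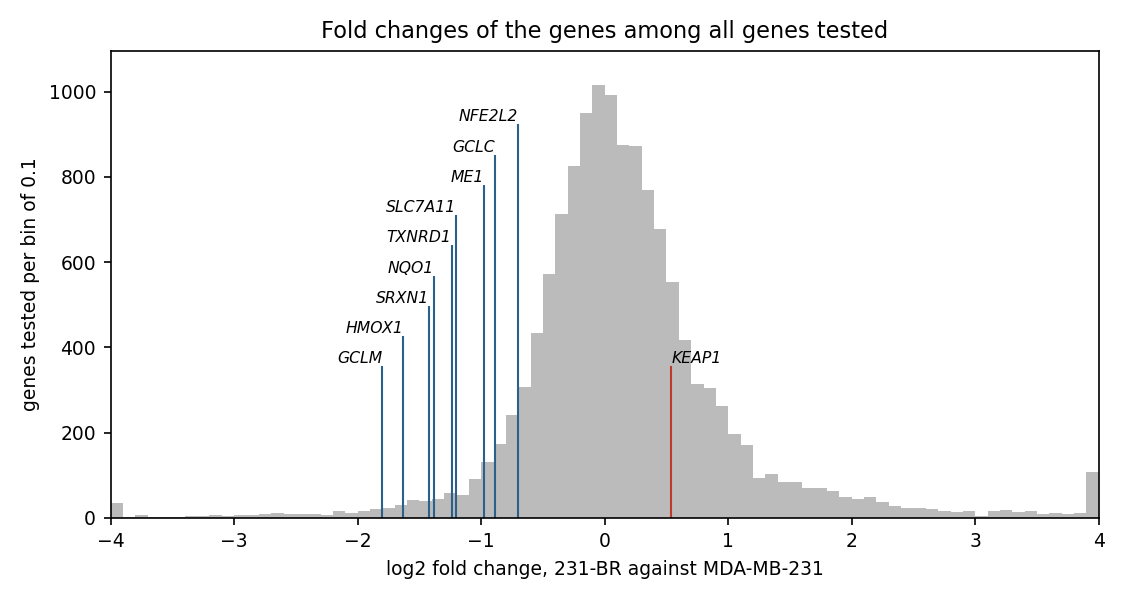
Histogram of the log2 fold changes of 13465 genes in bins of 0.1 (changes beyond 4 in either direction are counted in the end bins), with vertical lines for the 10 genes, whose heights only separate the names. The 8 targets lie in the left tail, from -1.80 to -0.89, and KEAP1 lies at 0.54 within the right shoulder.

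To show how each gene stood within its stretch of chromosome, it was set beside the median log2 fold change of up to 20 expressed genes on either side of it. KEAP1, on chromosome 19, lay in a raised stretch: its 40 neighbours had a median of 0.75, and KEAP1 itself was 0.21 below that. SLC7A11 and TXNRD1 went against raised surroundings, with neighbour medians of 0.60 on chromosome 4 and 0.52 on chromosome 12, and were 1.80 and 1.77 below them. NFE2L2 and GCLC had lowered neighbours, with medians of -0.33 and -0.38, and lay 0.38 and 0.51 below. For the other 5 genes the neighbour median was between -0.18 and 0.10. The part of such stretches in the changes of KEAP1, NFE2L2 and GCLC was not tested.

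**Figure D4:**
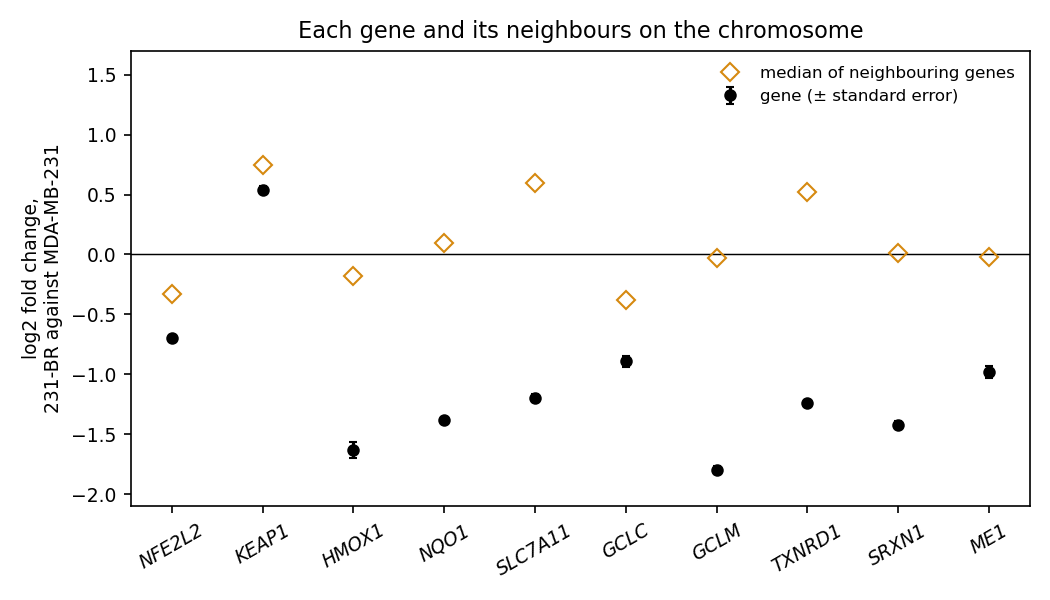
Log2 fold change of each gene (black, ± standard error from limma) and the median of its neighbouring genes along the chromosome (open diamonds, 40 neighbours, 28 for SRXN1 near a chromosome end). KEAP1 lies under its diamond at 0.75, and the targets lie below theirs by 0.51 (GCLC) to 1.80 (SLC7A11).

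Beyond these 10, a list of 105 other genes of the pathway was examined, of which 104 are in the table and 101 could be tested. The list was chosen with earlier results of these data known, so its shares are not independent evidence. Of the 101, 55 fell, 39 rose and 7 were not called, that is 54.5% lower where 32.9% of all genes tested were lower. The 39 that rose are 38.6%, where 44.4% of all genes tested rose. The criteria of the study were met by 12 as lower, where 1.77% of all genes tested met them so, and by 5 as higher, a share near the 4.68% of all genes tested. The counts of the single lists below stand beside the same shares of all genes tested, 77.3% called, 44.4% higher and 32.9% lower. Their median log2 fold change was -0.22, against 0.08 for all genes tested. Of the other 4, GPX2, AKR1C2 and UGT1A6 were under the filter on low values and GSTA1 was not analysed here. The 7 without a call were FBXW11, GGT1, GSTM2, PRDX3, PRDX5, SESN1 and ABCC5.

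**Figure D5:**
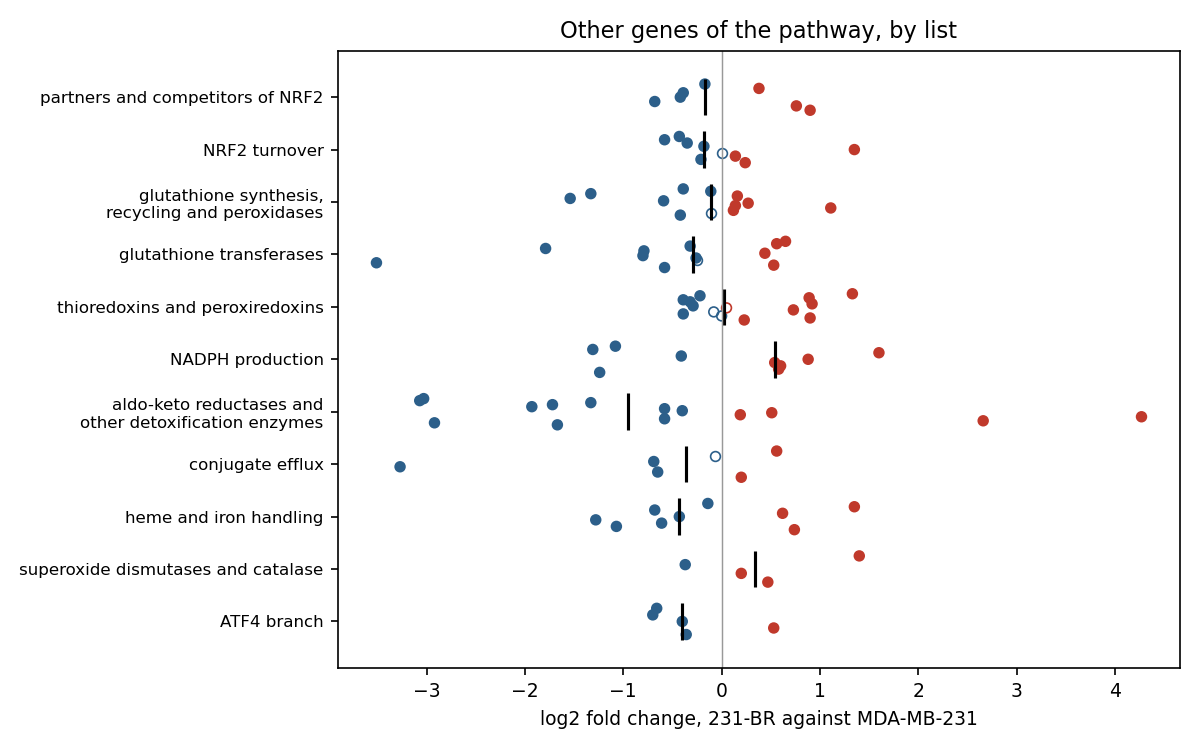
Log2 fold changes of 101 other pathway genes by list; each point is a gene, filled where the adjusted p is under 0.05, blue if lower and red if higher in 231-BR cells, and black bars are medians. The list of detoxification enzymes, which also holds TRIM16, TRIM16L, OSGIN1 and PIR, has the lowest median, -0.96, and spreads from -3.07 to 4.27. The genes listed under NADPH production, not all of which form NADPH, lie on either side of 0 with a median of 0.54.

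The 7 partners and competitors of NRF2 were all called, 4 lower and 3 higher, where 77.3% of all genes tested were called, so that the number of calls does not set them apart. The small MAF genes, whose proteins pair with NRF2 on the ARE, all fell: MAFF had a log2 fold change of -0.68, MAFG of -0.42 and MAFK of -0.39. BACH1, a heme-sensitive repressor that occupies AREs and holds HMOX1 down, rose from 5.83 ± 0.246 to 11.0 ± 0.655 FPKM (± SD, 3 libraries of each line), with 11.6, 11.0 and 10.3 in the 231-BR libraries against 5.93, 6.01 and 5.55. Its log2 fold change was 0.90 ± 0.056 (standard error; limma, adjusted p = 1.8e-07), and the median of its neighbours was 0.00. Of 9 genes for the turnover of NRF2, 5 fell, 3 rose and FBXW11 was not called. GSK3B, a kinase that marks NRF2 for degradation apart from KEAP1, had the largest increase, 1.35, where its neighbours had a median of 0.58. The study had picked this gene from these libraries, and it also reported higher GSK3B in 231-BR cells by quantitative RT-PCR. SQSTM1, or p62, which draws KEAP1 into autophagy, fell from 214 ± 2.99 to 143 ± 4.01 FPKM (± SD, 3 libraries of each line), giving a log2 fold change of -0.58.

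Among 12 tested genes of glutathione synthesis, recycling and peroxidases 6 fell and 5 rose. Glutathione reductase, GSR, had the largest decrease with at least 1 FPKM in both lines, from 27.0 ± 0.442 to 10.7 ± 0.514 FPKM (± SD, 3 libraries of each line), giving a log2 fold change of -1.33 ± 0.041 (standard error; limma, adjusted p = 1.3e-09). GPX4, the peroxidase of membrane lipids, had -0.59 on the same scale, and glutaredoxin GLRX2 had the largest increase, 1.11, with a neighbour median of 0.54. The 12 glutathione transferases tested held 7 that fell and 4 that rose, led by GSTM4 at -0.80 and MGST3 at 0.65 among those with at least 1 FPKM in both lines. GSTM1, named here after its value was seen, had 0.98 ± 0.131 against 12.1 ± 0.453 FPKM (± SD, 3 libraries of each line), and reads of GSTM genes can be divided between near copies.

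Thioredoxins and peroxiredoxins did not move as a group: of 14, 5 fell, 6 rose and 3 were not called, with a median of 0.03. Thioredoxin itself, TXN, fell by 0.32 on the log2 scale, and mitochondrial TXN2 fell by 0.39. PRDX1 rose by 0.23 and PRDX2 by 0.90, the latter among neighbours with a median of 0.80. The 4 superoxide dismutases and catalase likewise held 3 higher and 1 lower gene, from SOD2 at -0.37 to SOD3 at 1.40.

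Genes listed under NADPH production moved in both directions, with 4 of 9 lower and 5 higher. The list also holds pentose phosphate enzymes that do not form NADPH themselves, among them TALDO1 and PGLS. TALDO1, transaldolase of the non-oxidative pentose phosphate pathway, fell from 216 ± 10.7 to 86.8 ± 3.98 FPKM (± SD, 3 libraries of each line), giving a log2 fold change of -1.31, and PGD fell by 0.41. PGLS, the lactonase that acts just before PGD, rose by 1.60, in a stretch of chromosome 19 where the neighbour median was 1.02.

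Of 14 genes tested in the list of detoxification enzymes, 10 fell and 4 rose. That is 71.4% lower, where 32.9% of all genes tested were lower. The list also holds TRIM16, TRIM16L, OSGIN1 and PIR, which are not detoxification enzymes and which all fell. The share of lower genes counts them, and TRIM16 and TRIM16L are near copies. OSGIN1 and PIR (log2 fold change -1.72) were named after their values were seen. TRIM16 had the largest decrease, from 43.6 ± 1.24 to 5.11 ± 0.437 FPKM (± SD, 3 libraries of each line), giving a log2 fold change of -3.07, and its near copy TRIM16L had -3.03, so that the division of reads between them is uncertain. AKR1C1, an aldo-keto reductase often counted among NRF2 targets, went the other way, with 9.87, 11.3 and 9.17 FPKM in 231-BR and 1.36, 1.66 and 1.51 in MDA-MB-231 libraries, a log2 fold change of 2.66 ± 0.093 (standard error; limma, adjusted p = 3.2e-09). AKR1C genes are close copies, and AKR1C3 in the same table had a log2 fold change of -0.58. ALDH3A1, named after its value was seen, had 3.06 ± 0.110 against 0.067 ± 0.035 FPKM (± SD, 3 libraries of each line), the largest increase of the 101 genes at 4.27. Its MDA-MB-231 libraries had 0.07, 0.03 and 0.1 FPKM, no more than the 0.1 added to each value. The size of its change therefore depends on that addition. Of 6 efflux pumps for conjugates 3 fell and 2 rose, with ABCC1 at 0.20, ABCC4 at -0.69 and ABCG2 at 0.56. The largest change among them was that of ABCC3, named after its value was seen, a log2 fold change of -3.27. It had 0.19 ± 0.046 FPKM in 231-BR and 2.67 ± 0.060 in MDA-MB-231 cells (± SD, 3 libraries of each line). The 231-BR level of ABCC3 was also low against the 0.1 FPKM added.

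In heme and iron handling 6 of 9 genes fell, or 66.7% against 32.9% of all genes tested, and 3 rose, or 33.3% against 44.4%. The ferritin heavy chain FTH1, which stores iron released by heme oxygenase, fell from 1679.5 ± 26.1 to 694 ± 4.88 FPKM (± SD, 3 libraries of each line), giving a log2 fold change of -1.28 ± 0.021 (standard error; limma, adjusted p = 2.5e-11). The light chain FTL had 4761 ± 96.0 FPKM against 6436 ± 131 (± SD, 3 libraries of each line), giving a log2 fold change of -0.43 that became 0.00 after quantile normalization. Ferritin reads can also fall on processed pseudogenes. The biliverdin reductases, which act next after heme oxygenase, diverged: BLVRB fell by 1.07 and BLVRA rose by 0.74. In the branch of ATF4, a stress factor that also drives SLC7A11, 4 of 5 genes fell (32.9% of all genes tested), with ATF4 at -0.40 and DDIT3 at -0.70, and ATF3 rose by 0.53, a call that was lost after quantile normalization (0.15, limma adjusted p = 0.23).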

How the data were processed

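Total RNA of 3 libraries of 231-BR and 3 of MDA-MB-231 cells was selected for poly(A), and paired reads of 100 bases were made on a BGISEQ-500. The authors filtered the reads (SOAPnuke) and, per the submitters' processing notes, used HISAT2 2.0.4, Bowtie2 2.2.5 and GRCh38.p12. The values they deposited are FPKM per gene, with 2 decimals and no further normalization stated; the program that computed them is not given in the sources used here. No counts were used, which leaves the depth of the libraries unknown. The 6 files of single samples hold the same values as the table.

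A model with a term for the line was fitted to log2(FPKM + 0.1) in limma 3.58.1 under R 4.3.3 (lmFit, eBayes with trend) for 13465 genes with a mean of at least 0.1 FPKM over the 6 libraries, adjusted over all of them. Its recovery of known changes was checked on simulated data. Ratios within libraries, of log2(FPKM + 0.1), were compared by exact permutation (scipy 1.17.1). Gene positions came from GENCODE 29 (GRCh38), gene order and promoters from RefSeq (GRCh38.p14). Values are means ± SD. The 10 genes and all lists were chosen with earlier results of these data known. Named genes are the 10, 19 listed pathway genes, and per pathway list the largest increase and decrease among genes with an adjusted p under 0.05 and at least 1 FPKM in both lines; others are said to be named after their values were seen, or are given as near copies, uncalled genes or markers, and 1 of the listed genes is not reported here. Alternatives were pseudocounts of 1 and 0.01, no filter, a filter at 1 FPKM, median-of-ratios scaling, quantile normalization, scaling to a sum of 1000000, no trend, a term for the replicate number, leaving out each library, and other criteria.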

Additional observations from a re-analysis of the deposited data

How the results depend on the processing

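All 10 genes kept their direction and an adjusted p under 0.05 from limma in each of 15 alternative fits. Most of all genes were called in those fits too, for example 10574 of 13465 after quantile normalization. Log2 fold changes ran from -1.88 to -1.74 for GCLM, -1.81 to -1.43 for HMOX1, -0.78 to -0.63 for NFE2L2 and 0.46 to 0.61 for KEAP1. The median of the 10 was -1.30 after median-of-ratios scaling and -1.15 after scaling to equal sums, in step with the shift of all genes. Raising the fold criterion to 1.5 on the log2 scale left 2 genes past it as lower, GCLM and HMOX1. Between 6 and 8 were past the criterion of 1 in the alternative fits. ME1 joined after median-of-ratios scaling, and ME1 and GCLC (-1.04) after quantile normalization. Lower genes also made up a larger part of all genes meeting the criteria in those fits. The higher ones were 72.6% in the main fit, 63.4% after median-of-ratios scaling and 56.3% after quantile normalization. The other pathway genes called ran from 51 to 58 as lower and from 35 to 40 as higher. Of the 34 that the rule for named genes takes, 33 kept their direction. FTL had 0.00 and ATF3 0.15 (limma adjusted p = 0.23) after quantile normalization, which gives the most expressed gene nearly the same value in each library; for ATF3 the cause was not tested.

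Libraries with the same replicate number did not deviate together, with correlations across genes of 0.09, -0.04 and -0.11, so the numbers are not taken as pairs. With a replicate block the members called were still 9 lower and 1 higher, and the pathway genes 55 and 39. In that fit 10502 of all 13465 genes tested were called. As paired differences the 3 ratios were -1.24, -0.92 and -0.80, each with an exact sign-flip p of 0.25, the smallest that 3 pairs allow. FPKM without counts give no measure of the precision that depth sets for low genes such as ATF3 or MAFK.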
